A study of Mus musculus and Rattus norvegicus with 32 samples.

Results

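The mitochondrial ribosomal protein genes were described across the 4 comparisons of a heart RNA-seq series on METTL5, the methyltransferase that places N6-methyladenosine on the RNA of the small cytosolic ribosomal subunit. Members were all genes whose symbol was Mrpl or Mrps followed by a number and at most 1 letter. This gave 78 of 55487 listed genes in each mouse table, 49 Mrpl and 29 Mrps, and 76 of 32883 in the rat table, 45 Mrpl and 31 Mrps. The Mrpl and Mrps symbols stand for proteins of the large and small subunit, and both sets were kept apart. Each group held 4 libraries, 32 in 8 groups.

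The mouse groups were hearts of C57BL/6 animals. At 1 month, Mettl5-KO hearts, in which the gene was knocked out in the whole body, were set against Ctrl hearts. At 3 months, Mettl5-cKO hearts were set against Ctrl hearts. In Mettl5-cKO mice, Myh6-Cre, which is active in cardiomyocytes only, removed floxed exons of Mettl5, so the other cells of the heart kept the gene. The same 2 genotypes were compared 4 weeks after transverse aortic constriction (TAC), a surgery that raises the pressure load on the left ventricle, with an age label of 3 months. The titles of the Cre-deleted hearts give Mettl5-cKO and their genotype field gives Mettl5-KO. The alleles and Cre status of the Ctrl mice are not given by the labels. In the rat experiment, neonatal ventricular cardiomyocytes (NRVMs) of Sprague Dawley pups at postnatal day 2, pre-plated against fibroblasts, received adenovirus with GFP (AdGFP) or with the human METTL5 coding sequence (AdMettl5), and both groups were treated with 20 µM phenylephrine (PE), a hypertrophic adrenergic agonist, for 24 h.

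Mitochondria carry their own ribosome, which translates the few proteins encoded by mitochondrial DNA, all of them core parts of the respiratory chain or ATP synthase. Its ribosomal RNAs come from mitochondrial DNA, whereas its proteins are encoded in the nucleus, made in the cytosol and imported. Many of these proteins have bacterial counterparts and the others are particular to mitochondria, and the heart, with its dense mitochondria, needs this translation throughout life.

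Total counts per library were 19899033 to 21804907 in hearts, 17344430 to 18085339 in AdGFP NRVMs and 14324700 to 14642431 in AdMettl5 NRVMs. The gene-level count of Mettl5 did not separate the genotypes in the hearts (log2 fold change 0.22 at 1 month, -0.18 at 3 months and -0.04 after TAC, with overlapping groups). Such a count cannot show a loss of some exons, so in these counts the heart groups rest on their labels. The paper reports that RNA-seq reads over the floxed exons were nearly absent in Mettl5-cKO hearts. For the Mettl5-KO hearts it does not give the sequence removed, and why their count was not lower was not tested. In NRVMs the rat Mettl5 gene was listed at 17 ± 0.774 CPM (the count scaled to library size, mean ± SD, n = 4) with AdGFP and 21.2 ± 1.76 with AdMettl5. The virus carried the human sequence and reads were aligned to the rat genome, so these values do not measure how much METTL5 was added. The hearts and the NRVMs expressed cardiomyocyte markers at a high summed level, 19000 CPM or more in every heart and 8150 or more in every NRVM library. Library 4 of the Mettl5-cKO hearts after TAC stood apart from its group in the members' levels. Library 1 of the 1-month Ctrl hearts had the lowest summed Mrpl and Mrps levels of its group. Its Mrps level was close to that of library 3 (605.3 and 616.7 CPM). Values without these 2 outlying libraries, Mettl5-cKO library 4 and Ctrl library 1, are given where a result rests on them. All p-values measure the spread between libraries, which the labels do not tie to separate litters or cultures.

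In the GENCODE M21 annotation of GRCm38, the 78 mouse members lay on 17 chromosomes, none of them X or Y. A protein-coding neighbor started on the opposite strand within 500 bases of the start of 17 members (21.8%, against 6.16% of 21951 protein-coding genes). The exons of 33 members overlapped those of another gene, 28 of them a gene on the other strand and 8 a gene on the same strand. The strandedness of the counting is not stated, and part of the counts of these 33 members may belong to the neighbor.

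Promoters are shown for members on which the later results turn: Mrps9, Mrps21, Mrpl18 and Mrpl23, lower in both Mettl5-cKO hearts after TAC and AdMettl5 NRVMs, Mrpl45 and Mrpl42, called lower after TAC and not in NRVMs, and Mrps16, called lower in NRVMs and not after TAC. Each is the RefSeq sequence of GRCm38.p6 from 250 bases before to 50 bases after a transcript start, written 5′ to 3′ on the strand of the gene. Capitals mark matches on either strand to CCGGAAG (the core bound by ETS factors such as GABP), GCGCA followed by any base and GCGC (NRF1) or AAGATGGC (YY1), 3 motifs known from nuclear genes for mitochondrial proteins.
Mrps9 (chr1:42850983-42851282, plus strand): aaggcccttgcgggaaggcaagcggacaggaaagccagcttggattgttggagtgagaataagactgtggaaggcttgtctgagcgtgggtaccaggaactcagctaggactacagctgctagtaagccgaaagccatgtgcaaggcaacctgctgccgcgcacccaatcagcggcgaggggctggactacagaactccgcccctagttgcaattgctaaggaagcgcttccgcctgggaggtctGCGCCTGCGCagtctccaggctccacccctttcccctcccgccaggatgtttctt
Mrps21 (chr3:95871465-95871764, minus strand): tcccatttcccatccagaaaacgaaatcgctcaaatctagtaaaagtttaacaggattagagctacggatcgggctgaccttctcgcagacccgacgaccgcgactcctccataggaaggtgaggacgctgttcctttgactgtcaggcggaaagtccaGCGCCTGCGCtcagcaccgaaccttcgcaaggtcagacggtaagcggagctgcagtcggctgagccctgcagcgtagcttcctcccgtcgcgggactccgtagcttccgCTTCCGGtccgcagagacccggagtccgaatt
Mrpl18 (chr17:12916042-12916341, minus strand): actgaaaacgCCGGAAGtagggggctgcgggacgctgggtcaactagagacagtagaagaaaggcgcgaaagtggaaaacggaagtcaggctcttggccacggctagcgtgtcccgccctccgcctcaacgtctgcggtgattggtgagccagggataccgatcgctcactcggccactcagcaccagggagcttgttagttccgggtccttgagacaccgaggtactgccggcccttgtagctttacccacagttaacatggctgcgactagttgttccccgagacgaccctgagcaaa
Mrpl23 (chr7:142532782-142533081, plus strand): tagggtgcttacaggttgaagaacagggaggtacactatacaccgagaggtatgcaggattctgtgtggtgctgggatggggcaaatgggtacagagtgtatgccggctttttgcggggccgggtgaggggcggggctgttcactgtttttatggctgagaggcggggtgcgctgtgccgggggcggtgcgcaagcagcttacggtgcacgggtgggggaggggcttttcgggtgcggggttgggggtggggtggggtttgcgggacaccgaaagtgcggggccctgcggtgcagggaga
Mrpl45 (chr11:97315466-97315765, plus strand): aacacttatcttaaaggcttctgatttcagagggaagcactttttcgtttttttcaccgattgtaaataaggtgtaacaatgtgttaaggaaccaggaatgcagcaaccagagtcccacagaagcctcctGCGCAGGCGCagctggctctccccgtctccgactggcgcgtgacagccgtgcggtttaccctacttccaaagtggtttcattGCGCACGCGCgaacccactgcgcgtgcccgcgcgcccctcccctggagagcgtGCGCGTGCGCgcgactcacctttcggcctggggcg
Mrpl42 (chr10:95501900-95502199, minus strand): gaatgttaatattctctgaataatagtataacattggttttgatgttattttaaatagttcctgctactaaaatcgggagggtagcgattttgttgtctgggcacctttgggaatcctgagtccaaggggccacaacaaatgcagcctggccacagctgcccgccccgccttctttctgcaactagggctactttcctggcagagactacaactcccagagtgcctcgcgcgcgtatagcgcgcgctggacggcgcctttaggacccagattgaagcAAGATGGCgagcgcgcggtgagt
Mrps16 (chr14:20393441-20393740, minus strand): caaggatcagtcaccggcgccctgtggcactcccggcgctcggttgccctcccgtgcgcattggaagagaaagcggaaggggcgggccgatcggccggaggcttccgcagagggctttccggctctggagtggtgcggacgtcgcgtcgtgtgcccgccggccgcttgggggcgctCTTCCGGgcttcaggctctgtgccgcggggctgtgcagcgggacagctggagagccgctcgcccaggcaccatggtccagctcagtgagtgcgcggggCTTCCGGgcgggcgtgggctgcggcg
For Mrpl18, Mrpl23, Mrps16 and, by a few bases, Mrps21 this start lies inside the GENCODE gene. Mrps16 has another RefSeq promoter, at the GENCODE start of the gene, which overlaps the one shown and holds none of the 3 motifs. The Mrpl45 promoter holds 3 NRF1 matches, the Mrps9 promoter 1 and the Mrps21 promoter 1 beside 1 ETS match. The Mrpl18 promoter holds 1 ETS match, the Mrps16 promoter shown here 2, and that of Mrpl42 1 YY1 match shortly after the start. The Mrpl23 window holds none of the 3.

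RefSeq promoters were matched for 69 of the 78 members, 75 promoters in all. The ETS core was found in 34.7% of them, against 11.6% of 21262 promoters of protein-coding genes and 8.9% of all 32851 promoters. The NRF1 motif stood in 17.3%, against 6.4% and 4.6%. The YY1 motif stood in 16%, against 3.1% and 2.7%. The ETS share was close to that of 73 cytosolic ribosomal protein promoters (35.6%) and above that of 36 promoters of nuclear complex I subunits (11.1%), whereas the YY1 share was below that of complex I (19.4%). Among the 12 members with a promoter that were lower after TAC, 3 held an ETS core, 3 an NRF1 motif and 1 a YY1 motif. Among the 41 that were lower in NRVMs, 17, 6 and 7 held them, against 26, 13 and 12 of all 69. These matches describe the letters of the window and are not measured binding sites.

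All 78 mouse members passed the filter on low counts and were tested in each heart comparison. In 3-month Ctrl hearts, the level per kb of exon differed widely between members. The length is that of the merged exons of all annotated transcripts, from 607 to 8631 bases, so the order depends on the annotated length. That length was 739, 607 and 1532 bases for Mrps21, Mrpl34 and Mrpl12, and 8079, 3991 and 8152 for Mrps10, Mrps22 and Mrpl48. Mrps21, the counterpart of a bacterial small-subunit protein, was highest at 76.4 ± 11.6 CPM per kb (SD, n = 4), followed by Mrpl34 (64 ± 6.07) and Mrpl12 (62.7 ± 1.94), whose protein forms the stalk that recruits translation factors. These 3 ranges overlapped from one to the next (64 to 90, 59.5 to 72.7 and 60.6 to 65.1), so their order was not resolved. Mrps10 was lowest at 1.55 ± 0.116 CPM per kb, below Mrps22 (2.84 ± 0.436) and Mrpl48 (2.98 ± 0.12), which overlapped each other. Both subunits were spread over the whole range. The order in 3-month Ctrl hearts was close to that at 1 month (Spearman's rho 0.98 across genes) and after TAC (0.99), where the exon lengths are shared and genes are not independent replicates.

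**Figure D1:**
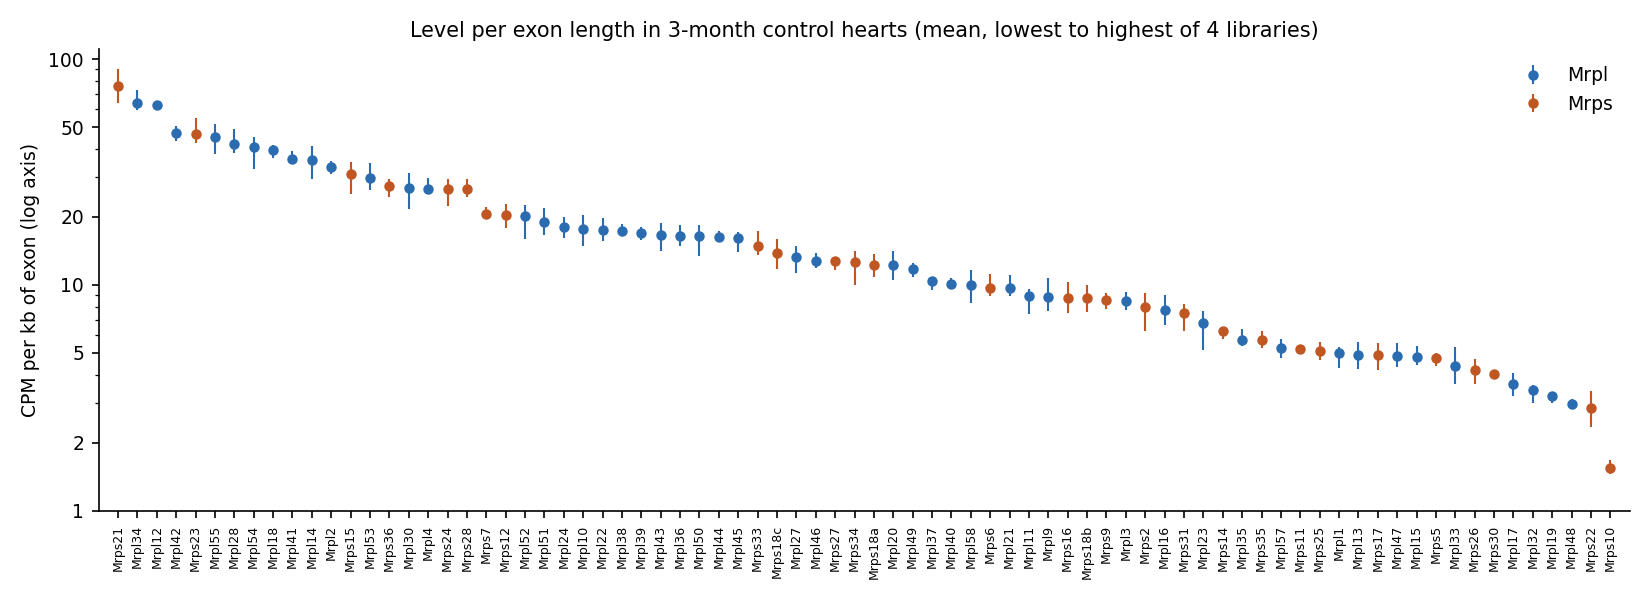
Level of each of the 78 members in 3-month Ctrl hearts, in CPM per kb of exon on a log axis, ordered from high to low, with points for the mean and lines from the lowest to the highest of 4 libraries. Mrps21, Mrpl34 and Mrpl12 are at 62.7 or above and Mrps10 is alone at 1.55, with Mrpl (blue) and Mrps (orange) members mixed along the order.

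At 1 month, the whole-body knockout of Mettl5 was compared with Ctrl. No member was called by edgeR's quasi-likelihood test at a Benjamini-Hochberg adjusted p under 0.05, and none by DESeq2's Wald test, while 0.00612% of the 16329 genes tested were called by edgeR. The fold changes of the Mrpl members ran from -0.17 to 0.27 on the log2 scale with a median of 0.057, and those of the Mrps members from -0.18 to 0.48 with a median of 0.014, beside -0.007 over all genes. Of the Mrpl members 16 of 49 and of the Mrps members 13 of 29 were below 0, beside 51.4% of all genes. Groups overlapped for every member, while 3.01% of all genes did not overlap. Mrpl47, the counterpart of a bacterial protein at the exit of the peptide tunnel, was at 12.8, 15, 12.8 and 14.9 CPM in Ctrl and 16.8, 14.5, 16.7 and 18.4 CPM in Mettl5-KO hearts. It was the only member with an unadjusted p under 0.05, which 4.57% of all genes had (log2 fold change 0.26 ± 0.107 SE, unadjusted p = 0.0369, adjusted p = 0.973, edgeR). Its exons overlap those of Actl6a and Ndufb5 on the other strand, so this value is uncertain. Mrps22 had the highest fold change (0.48 ± 0.251) at 2.78, 6.23, 4.59 and 6.13 CPM in Ctrl and 5.86, 5.97, 6.89 and 8.65 CPM in Mettl5-KO hearts, with the lowest value in Ctrl library 1. The summed Mrpl level was 1146 CPM in Ctrl library 1 and 1347 to 1601 CPM in the other 3, and the 4 Mettl5-KO hearts, at 1370 to 1611 CPM, covered nearly the same range as these 3. Without that library the medians were -0.04 (Mrpl) and -0.038 (Mrps), again with no member called. Red blood cell markers summed to 461 to 4570 CPM in Ctrl and 828 to 2000 CPM in Mettl5-KO hearts. Cardiomyocyte markers summed to 19000 to 25400 against 23400 to 26100 CPM, with 0 called in either set. The TMM scaling factors ran from 0.796 to 1.254 in Ctrl and from 0.962 to 1.089 in Mettl5-KO hearts. The part of these differences in the members' levels was not tested.

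**Figure D2:**
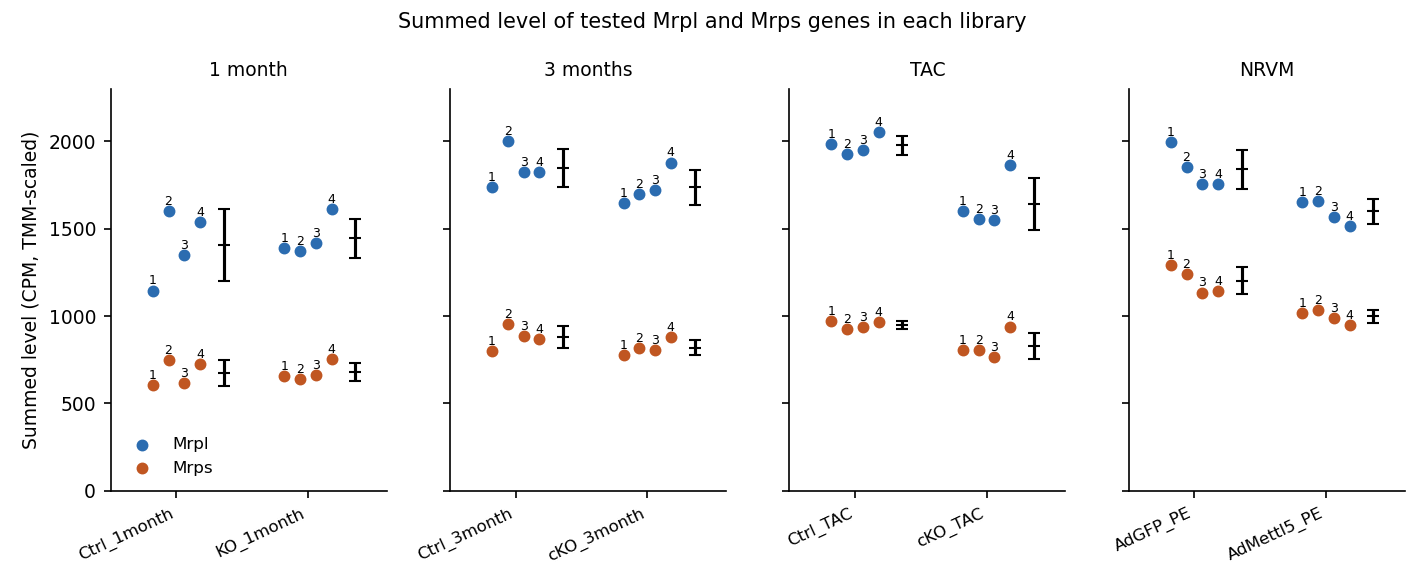
Summed CPM of the tested Mrpl (blue) and Mrps (orange) members in each of the 32 libraries, with library numbers above the points and the mean with its SD beside each group. After TAC the Mettl5-cKO hearts are at 1548 to 1863 (Mrpl), below the Ctrl hearts at 1928 to 2051, with library 4 the highest; at 1 and 3 months the groups overlap.

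At 3 months, in unstressed hearts, no member was called either by edgeR or by DESeq2, while 0.0732% of 16391 genes were by edgeR. At an unadjusted p under 0.05, edgeR gave 3 lower Mrpl, 3 lower Mrps and 1 higher Mrpl member, beside 7.05% of all genes in either direction. Most members lay slightly below Ctrl. Of the Mrpl members, 41 of 49 had a fold change below 0, with a median of -0.084 and a range of -0.28 to 0.25. Of the Mrps members 25 of 29 were below 0, with a median of -0.089 and a range of -0.26 to 0.1. The median over all genes was 0.001, and 49.7% of genes were below 0. When libraries were scaled by their total counts alone, which moved the median of all genes to 0.052, 33 Mrpl and 18 Mrps members were below 0. Without Ctrl library 2, whose members were highest, the medians were -0.032 (Mrpl) and -0.056 (Mrps), and without Ctrl library 1 that of Mrps was -0.134. The summed Mrpl level was 1737 to 2001 CPM in Ctrl and 1649 to 1879 in Mettl5-cKO hearts, so it overlapped.

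In 4 Mrpl and 2 Mrps members, all 4 Mettl5-cKO hearts were below all 4 Ctrl hearts, beside 2.04% of all genes. Mrpl28, the counterpart of a bacterial large-subunit protein, was at 53, 67.7, 56.7 and 54.9 CPM in Ctrl and 46.6, 47.8, 49.3 and 48.1 CPM in Mettl5-cKO hearts. Its log2 fold change was -0.28 ± 0.0922 and its adjusted p 0.529 by edgeR. Mrps9, which belongs to the head of the small subunit, was at 46.9, 53.3, 51.9 and 44.9 CPM in Ctrl and 42.5, 41.3, 38 and 42.3 CPM in Mettl5-cKO hearts (-0.26 ± 0.0863, adjusted p = 0.521). For both genes the gap between the groups was small beside the spread in Ctrl. The other 4 were Mrpl38 (-0.19), Mrpl44 (-0.15), Mrpl46 (-0.2) and Mrps30 (-0.18), whose protein sits in the large subunit in spite of its symbol.

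After TAC, 14 members were lower in Mettl5-cKO than in Ctrl hearts, 9 Mrpl and 5 Mrps, and none was higher by edgeR. At an unadjusted p under 0.05 edgeR gave 2 higher Mrps members, beside 15.2% of all genes, and DESeq2 called 1, beside 1460 of 30075 genes. The 14 lower members made up 17.9% of the members, where 6.10% of the 16340 genes tested were lower and 6.57% higher. The fold change was below 0 in 47 of 49 Mrpl members, with a median of -0.243 and a range of -0.56 to 0.12, and in 25 of 29 Mrps members, with a median of -0.17 and a range of -0.62 to 0.34. The median over all genes was -0.004, and 50.6% were below 0. None of the members passed a log2 change of 1, which 2.90% of all genes did with a call. With scaling by total counts alone the median of all genes moved to 0.143 and the member medians to -0.099 (Mrpl, 34 of 49 below 0) and -0.025 (Mrps, 19 of 29 below 0). With that scaling 3 Mrpl and 4 Mrps members were lower and 2 Mrps higher, and all genes split into 524 lower and 2060 higher calls in place of 997 and 1074. The groups did not overlap, with Mettl5-cKO below, in 14 Mrpl and 10 Mrps members, beside 9.16% of all genes, and all 14 called members were among them. The summed Mrpl level was 1983, 1928, 1949 and 2051 CPM in Ctrl and 1602, 1557, 1548 and 1863 CPM in Mettl5-cKO hearts, without overlap. The summed Mrps level was 923.7 to 970.5 CPM in Ctrl and 806.7, 804.4, 765.8 and 939.9 CPM in Mettl5-cKO hearts, where library 4 alone reached the Ctrl range.

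**Figure D3:**
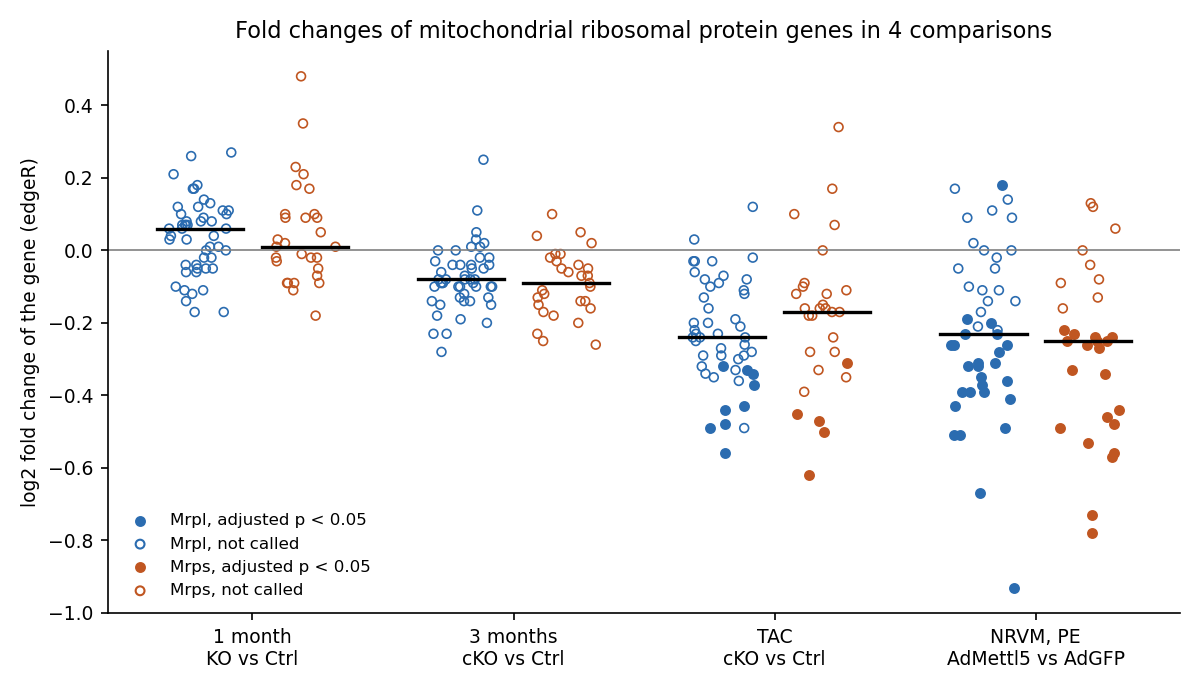
Log2 fold change of each Mrpl (blue) and Mrps (orange) member in the 4 comparisons, with black lines for the medians and filled points for adjusted p under 0.05 by edgeR. The medians are near 0 at 1 month and -0.243 and -0.17 after TAC, and the filled points are in the TAC and NRVM comparisons only.

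In the small subunit, Mrps35 had the lowest fold change of Mettl5-cKO against Ctrl hearts after TAC. Its protein is particular to mitochondrial ribosomes, and its gene lies at chr6:147042764-147073991 on the plus strand. Mrps35 was at 46.4, 53.4, 50.8 and 56.4 CPM in Ctrl and 30.1, 31.4, 31.4 and 41.9 CPM in Mettl5-cKO hearts. All Ctrl hearts were above all Mettl5-cKO hearts, and Mettl5-cKO library 4 stood between the other 3 and Ctrl. The means were 51.7 ± 4.24 and 33.7 ± 5.48 CPM (± SD), and the fold change was -0.62 ± 0.116 on the log2 scale (± SE, adjusted p = 0.0146, edgeR). Mrps9, whose promoter held an NRF1 match, was at 56.5, 48.9, 43.9 and 51.5 CPM in Ctrl and 34.8, 35.9, 33.7 and 40.6 CPM in Mettl5-cKO hearts. The 8 values again fell into separate ranges (-0.47 ± 0.0954, adjusted p = 0.0176). Mrps21, the highest member per length, was at 60.6, 66.7, 72.4 and 64.2 CPM in Ctrl and at 46.3, 42.3, 39 and 59.7 CPM in Mettl5-cKO hearts, where library 4 nearly reached the lowest Ctrl heart (-0.5 ± 0.128, adjusted p = 0.036). Mrps28, the counterpart of a bacterial small-subunit protein, was at 23.1 ± 1.51 CPM in Ctrl and 16.9 ± 2.78 CPM in Mettl5-cKO hearts (-0.45, adjusted p = 0.0346, edgeR).

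Mrps36 was also lower, at 36.1 ± 1.36 CPM in Ctrl and 29.2 ± 3.17 CPM in Mettl5-cKO hearts (-0.31 ± 0.0862, adjusted p = 0.0449, edgeR). Its protein is now known as a subunit of the oxoglutarate dehydrogenase complex and not of the ribosome. The pseudogenes Mrps36-ps1 (-0.42) and Mrps36-ps2 (-0.44) had fold changes of the same sign, and reads may be split between them and the gene, so this value is uncertain. Mrps18a and Mrps30, whose proteins sit in the large subunit, had fold changes of -0.16 and -0.15 and were not called. Mrps12, part of the decoding center, had -0.18 and was not called either. Without Mrps18a, Mrps30 and Mrps36, 4 of 26 Mrps members were lower, with a median of -0.172.

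In the large subunit, Mrpl28 (chr17:26123500-26126613, plus strand) had the lowest fold change of Mettl5-cKO against Ctrl hearts after TAC. It was at 56.9, 62.1, 59.9 and 66.1 CPM in Ctrl and 42.4, 38.7, 34.7 and 50 CPM in Mettl5-cKO hearts. All Ctrl values were above all Mettl5-cKO values, with means of 61.2 ± 3.87 and 41.5 ± 6.52 CPM (-0.56 ± 0.111, adjusted p = 0.0168, edgeR). Mrpl42, a member particular to mitochondria, was the most abundant of the called members at 195, 183, 181 and 196 CPM in Ctrl. Its Mettl5-cKO values were 124, 126, 116 and 171 CPM, so library 4 lay near Ctrl and the other 3 well below (-0.49 ± 0.119, adjusted p = 0.0304). Mrpl55 was at 52.2 ± 2.41 CPM in Ctrl and 37.5 ± 7.08 CPM in Mettl5-cKO hearts (-0.48 ± 0.12, adjusted p = 0.0336, edgeR).

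Mrpl18, the counterpart of the bacterial protein that binds the smallest ribosomal RNA, was at 57.6, 56.9, 55.2 and 61.8 CPM in Ctrl and 38, 40.5, 43.1 and 50.2 CPM in Mettl5-cKO hearts. The ranges were apart (-0.43 ± 0.0933, adjusted p = 0.0209). The exons of Mrpl18 overlap those of Tcp1 on the other strand, so this value is uncertain. Around the exit of the peptide tunnel, Mrpl45, which ties the ribosome to the inner membrane, was at 43.4, 40.4, 37.8 and 41.9 CPM in Ctrl and 29.9, 30.6, 30.5 and 35.9 CPM in Mettl5-cKO hearts (-0.37 ± 0.0826, adjusted p = 0.0241). Its neighbor in the ribosome, Mrpl23, was at 30.8, 31.2, 39.2 and 37.5 CPM in Ctrl and 27.8, 23.2, 22.2 and 29.3 CPM in Mettl5-cKO hearts. The groups were separated by a narrow gap (-0.44 ± 0.12, adjusted p = 0.0426), and a pseudogene, Mrpl23-ps1, had a fold change of -0.47 (adjusted p = 0.0669), so this value is uncertain. Mrpl24, also at the tunnel, had -0.23 and was not called. Mrpl46 (-0.32), Mrpl1 (-0.34), which forms a mobile stalk, and Mrpl51 (-0.33) completed the called Mrpl members. Mrpl46 overlaps Mrps11, which lies on the other strand, and the exons of Mrpl51 overlap Mir3098 on the same strand. The values of Mrpl46 and Mrpl51 are therefore uncertain.

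Mrpl12 fell short of the threshold (102 ± 5.19 against 83.1 ± 9.47 CPM, -0.29 ± 0.0906, adjusted p = 0.0611), as did Mrpl58, which rescues stalled mitochondrial ribosomes (-0.32 ± 0.0976, adjusted p = 0.0572). Only Mrpl33 (0.12 ± 0.0906, adjusted p = 0.387) and Mrpl53 (0.03 ± 0.0965, adjusted p = 0.879) had a fold change above 0 among the Mrpl members. Their exons overlap those of another gene on the same strand (Gm43809 and Gm42688), so both values are uncertain. Among the Mrps members, Mrps23 had the highest, a gene singled out here after its values were seen. It was at 86.6, 64.2, 70.7 and 69.3 CPM in Ctrl and 89.4, 100, 80.5 and 98.3 CPM in Mettl5-cKO hearts, so 1 Ctrl heart lay within the Mettl5-cKO range (0.34 ± 0.109, adjusted p = 0.0684). Mrps6 (0.17) and Mrps18b (0.1), also named after their values were seen, were higher in every Mettl5-cKO heart than in every Ctrl heart without being called, beside 9.41% of all genes. The exons of Mrps6 overlap those of Slc5a3 and Gm49711 on the same strand, and those of Mrps18b overlap Gm16279 on the other strand, so these values are uncertain too.

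**Figure D4:**
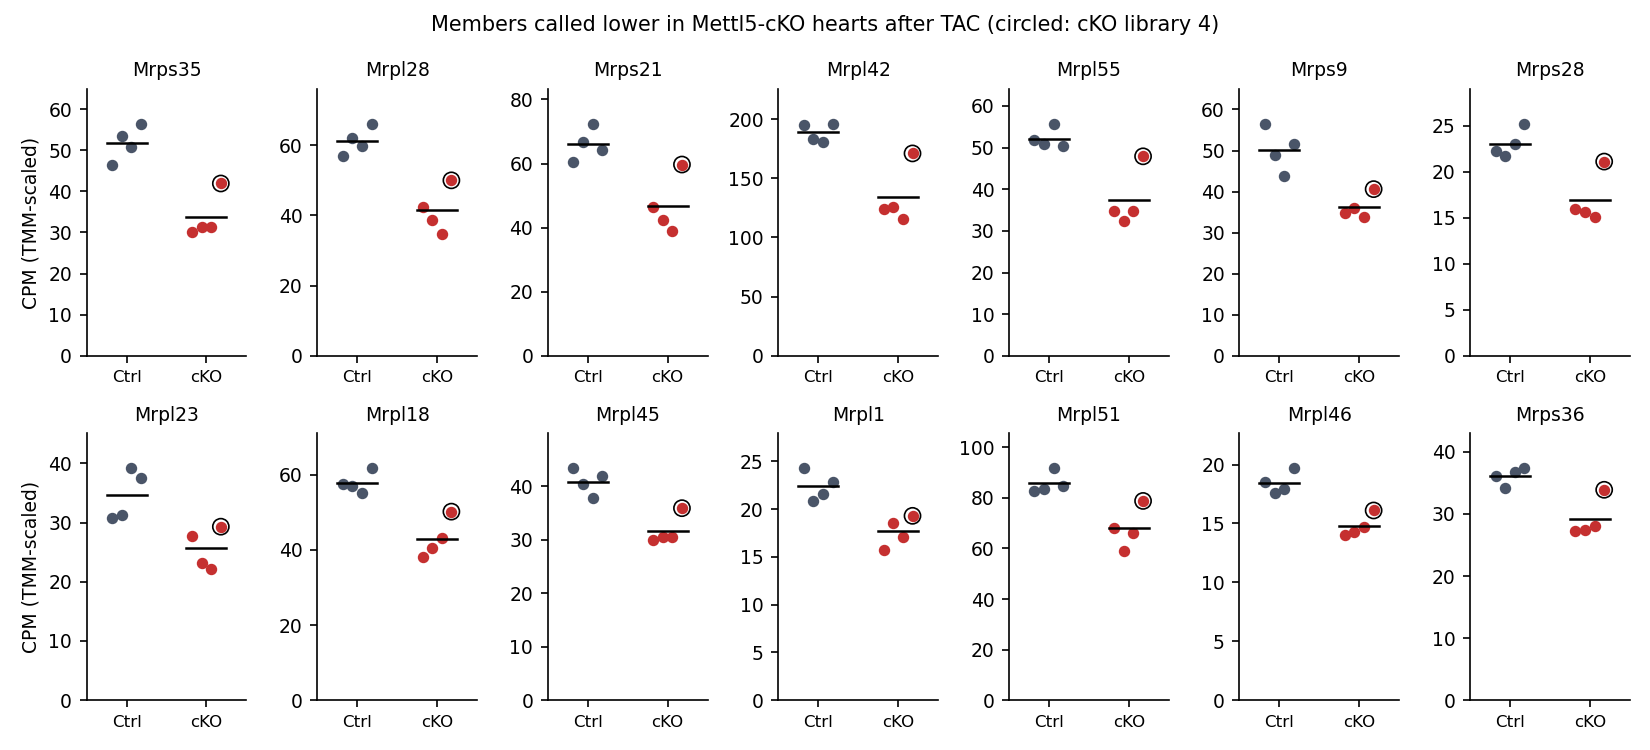
CPM of the 14 members called lower in Mettl5-cKO hearts after TAC, 1 panel a gene, each axis starting at 0, with points for the 4 Ctrl and 4 Mettl5-cKO libraries and lines for the means. Mettl5-cKO library 4 (circled) is the highest Mettl5-cKO value in every panel, for example 171 CPM for Mrpl42 where the other 3 are at 116 to 126.

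After TAC, members with bacterial counterparts and those particular to mitochondria were counted apart, with no test of a difference between them and beside 6.10% of all genes lower. Of the bacterial-type Mrpl members 4 of 29 were lower (median -0.228) and of the mitochondria-specific ones 5 of 20 (-0.254). Of the bacterial-type Mrps members 3 of 18 were lower (-0.167) and of the other Mrps members 2 of 11 (-0.17).

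The number of called members depended on single libraries. Without Mettl5-cKO library 4, 27 Mrpl and 12 Mrps members were lower, the 14 members above among them, while 11.6% of all genes were lower. Without Ctrl library 4 or Mettl5-cKO library 2 no member was called, with 1.13% and 1.23% of all genes lower. Without Ctrl library 2 the counts were 0 Mrpl and 2 Mrps, with 1.73% of all genes lower. Without Mettl5-cKO library 1 or 3 they were 1 and 2, with 2.51% and 2.67% of all genes lower. Without Ctrl library 1 or 3 they were 4 and 2, with 4.41% and 2.67%. The medians moved less, from -0.278 to -0.196 for Mrpl and from -0.189 to -0.133 for Mrps.

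Cell type markers also differed after TAC. The summed level of 8 cardiomyocyte markers was 30000 to 34500 CPM in Ctrl and 23300 to 28900 CPM in Mettl5-cKO hearts, with 2 of 8 lower. The summed level of 7 fibroblast markers was 506 to 620 CPM against 727 to 1680 CPM, with 5 of 7 higher. For 6 endothelial markers it was 641 to 767 CPM against 434 to 577 CPM, with 4 lower, and for 6 macrophage markers 136 to 185 against 179 to 250 CPM, with 2 higher. In these bulk samples, fewer cells of a type and less RNA per cell cannot be told apart, and the part of the markers in the members' lower levels was not tested. At 3 months the cardiomyocyte markers summed to 34300 to 36900 CPM in Ctrl and 30600 to 35600 CPM in Mettl5-cKO hearts. The fibroblast markers summed to 389 to 508 against 493 to 644 CPM, the endothelial markers to 513 to 803 against 406 to 621 CPM and the macrophage markers to 89.5 to 112 against 113 to 152 CPM, the last without overlap. The lowest adjusted p among these 3-month markers was that of Kdr (0.184, log2 fold change -0.84, edgeR), and their part in the members' slightly lower levels was not tested.

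Other genes of mitochondrial gene expression were read after TAC beside the 6.10% of all genes that were lower. Among 5 subunits without an Mrp symbol, Gadd45gip1 (-0.41 ± 0.11, adjusted p = 0.0395) and Aurkaip1 (-0.29 ± 0.0825, adjusted p = 0.0472) were lower. Of 22 genes for ribosome assembly and rRNA modification 6 were lower, with Eral1, a GTPase that binds the small ribosomal RNA (-0.39, adjusted p = 0.0161), and Mterf3 (-0.42, adjusted p = 0.0257) in front. Of 17 mitochondrial aminoacyl-tRNA synthetases, which charge tRNAs, 5 were lower, led by Sars2 (-0.39, adjusted p = 0.0281) and Aars2 (-0.31, adjusted p = 0.0299). Tufm, the elongation factor that brings charged tRNAs, was the 1 lower gene of 13 translation factors (-0.41, adjusted p = 0.0255), a share of 7.69% and near that of all genes, and none of 9 genes of mitochondrial DNA transcription, replication and mRNA stability was called by edgeR, with 2 lower at an unadjusted p under 0.05. None of these lists had a gene that was higher even at that unadjusted p. For comparison, 25 of 39 nuclear complex I subunits were lower with a median of -0.446, and of 81 cytosolic ribosomal proteins 1 was lower and 2 higher with a median of 0.018. In the unstressed hearts of both ages no gene of the 5 mitochondrial translation and transcription lists was called by edgeR. At an unadjusted p under 0.05 there was 1 higher gene, a translation factor, in the 1-month comparison, and in the 3-month comparison 2 lower synthetases and 1 lower and 1 higher assembly gene.

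The mitochondrial side was read from the same libraries. The mitochondrial ribosomal RNAs mt-Rnr1 (6040 ± 1410 CPM in Ctrl, 3510 ± 1470 in Mettl5-cKO hearts, -0.78, adjusted p = 0.0963) and mt-Rnr2 (11600 ± 2920 and 6160 ± 2240, -0.92, adjusted p = 0.0518) did not pass the threshold. How ribosomal RNA was removed or mRNA selected is not given in the sources used here, which limits these values. Of the 13 mRNAs encoded in mitochondrial DNA, a list added after the data were seen, only mt-Nd3 was lower (-0.58, adjusted p = 0.0139), and 10 of 13 were below 0 with a median of -0.151.

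The genotype effect after TAC was set against that at 3 months in 1 fit over the 16 libraries. The hearts with TAC and the unstressed hearts were separate sets of libraries, and the series holds no sham-operated hearts. This fit therefore cannot tell TAC from anything else in which these sets differ. No member was called by edgeR, beside 0.00586% of 17070 genes, and 6 Mrpl and 3 Mrps members had an unadjusted p under 0.05, beside 11.8% of all genes. The difference was below 0 in 44 of 49 Mrpl members with a median of -0.135, and in 19 of 29 Mrps members with a median of -0.117, beside 0.003 over all genes. The lowest adjusted p was that of Mrpl16 (-0.49 ± 0.15, adjusted p = 0.209, edgeR), and Mrps35 followed (-0.44 ± 0.149, adjusted p = 0.253). Without Mettl5-cKO library 4 after TAC, 3.91% of 17353 genes and 5 of the 78 members were called, Mrpl42 (-0.53, adjusted p = 0.0162), Mrps35 (-0.57, adjusted p = 0.0218), Mrpl2 (-0.42, adjusted p = 0.0308), Mrps28 (-0.45, adjusted p = 0.0477) and Mrpl18 (-0.41, adjusted p = 0.0493).

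In PE-treated NRVMs, 74 of 76 rat member genes were tested. Mrpl9, Mrpl11, Mrpl24 and Mrpl30 were found under no symbol in the rat table and are not analysed there. The 2 untested genes, both named Mrps21l, had counts in 1 library of each group only. Their symbol marks them as like Mrps21, reads may be split between them, and the rat value of Mrps21 is therefore uncertain. With AdMettl5, 25 of 45 Mrpl and 20 of 29 Mrps members were lower than with AdGFP, and 1 Mrpl member was higher. They made up 60.8% of the members, where 25.7% of the 15041 genes tested were lower and 27.1% higher. The median fold change was -0.232 for Mrpl (-0.93 to 0.18, 37 of 45 below 0) and -0.251 for Mrps (-0.78 to 0.13, 26 of 29 below 0), beside -0.002 over all genes, of which 50.3% were below 0. None passed a log2 change of 1, which 5.85% of all genes did with a call. In 22 Mrpl and 15 Mrps members the AdMettl5 libraries lay entirely below the AdGFP libraries, beside 23.1% of all genes. The summed level was 1756 to 1994 CPM with AdGFP and 1516 to 1661 CPM with AdMettl5 for Mrpl, and 1135 to 1292 against 949.4 to 1034 CPM for Mrps, without overlap in either.

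The calls depended on the scaling. With total counts alone the median of all genes moved to 0.133, 14 Mrpl and 11 Mrps members were lower and 8 and 4 higher, and all genes split into 2343 lower and 5872 higher calls in place of 3867 and 4082. The member medians were then -0.095 (Mrpl, 30 of 45 below 0) and -0.115 (Mrps, 21 of 29 below 0).

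Mrpl23 fell most in NRVMs. It was at 50.5, 44, 49 and 45.1 CPM with AdGFP and 27.7, 23.6, 22.8 and 25.1 CPM with AdMettl5. The groups were far apart, with means of 47.1 ± 3.1 and 24.8 ± 2.18 CPM (-0.93 ± 0.0711, adjusted p = 7.08e-07, edgeR). Mrpl45, of the same tunnel exit, was at 53.6, 58.2, 52.1 and 51.6 CPM with AdGFP and 55.5, 56.2, 52.6 and 51 CPM with AdMettl5. Its groups covered the same range (0 ± 0.0548, adjusted p = 0.989). Mrpl15, the counterpart of a bacterial large-subunit protein, was at 84.3, 79.7, 80.2 and 79.6 CPM with AdGFP and 54.1, 57.1, 56 and 59.5 CPM with AdMettl5 (-0.51 ± 0.0464, adjusted p = 2.66e-06). Mrpl40, particular to mitochondria, was at 23.7, 22.1, 21.5 and 24.1 CPM with AdGFP and 15.6, 14.6, 12.8 and 14.6 CPM with AdMettl5 (-0.67 ± 0.0732, adjusted p = 1.26e-05). For Mrpl15 and Mrpl40 the groups lay apart.

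Mrpl52 (-0.43, adjusted p = 8.33e-05), Mrpl10, which anchors the Mrpl12 stalk (-0.51, adjusted p = 0.000164), and Mrpl35 (-0.39, adjusted p = 0.000164) also fell. Mrpl12 itself was at 108 ± 9.62 CPM with AdGFP and 107 ± 5.63 CPM with AdMettl5 (-0.02 ± 0.0642, adjusted p = 0.769). The rescue factor Mrpl58 fell from 48.8 ± 3.5 to 37.3 ± 1.27 CPM (-0.39, adjusted p = 0.000174). Mrpl43 was the 1 higher member, at 37.1, 32.2, 34.1 and 33.8 CPM with AdGFP and 41.7, 38.9, 40 and 34.6 CPM with AdMettl5. The groups overlapped (0.18 ± 0.0671, adjusted p = 0.0433), and the call was lost when any 1 library other than AdGFP library 1 or AdMettl5 library 4 was left out (adjusted p up to 0.127).

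In the small subunit, Mrps35 again had the lowest fold change. It was at 41.5, 39.5, 37.1 and 35.8 CPM with AdGFP and 23.4, 22.9, 21.1 and 22.4 CPM with AdMettl5. The groups were well apart (-0.78 ± 0.0625, adjusted p = 1.07e-06, edgeR). Mrps16, with 2 ETS matches in 1 of its 2 promoters, was at 32.7, 28.8, 27.4 and 27.7 CPM with AdGFP and 19.4, 18.7, 15.8 and 16.5 CPM with AdMettl5 (-0.73 ± 0.0821, adjusted p = 1.55e-05). Mrps15, which binds the small ribosomal RNA in bacteria, was at 66.1, 64.5, 65.9 and 65 CPM with AdGFP and 45.7, 47.5, 45.8 and 42.5 CPM with AdMettl5 (-0.53 ± 0.0471, adjusted p = 2.49e-06). These 3 genes had no value in common between the groups. Mrps9 fell from 50.1 ± 2.58 to 36.4 ± 1.86 CPM (-0.46, adjusted p = 3.08e-05), and Mrps22 (-0.49, adjusted p = 5.05e-05) and Mrps27 (-0.44, adjusted p = 6.81e-05) fell as well. Mrps18a (-0.34, adjusted p = 0.000571), Mrps30 (-0.25, adjusted p = 0.00112) and Mrps36 (-0.57, adjusted p = 0.00026), which are not small-subunit proteins, were all lower. Mrps12 of the decoding center was at 38.1 ± 0.928 and 39.6 ± 1.7 CPM (0.06 ± 0.0502, adjusted p = 0.378).

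The same 2 kinds of members were counted in NRVMs, again with no test between them and beside 25.7% of all genes lower. Of the bacterial-type Mrpl members 15 of 25 were lower (median -0.232) and of the mitochondria-specific ones 10 of 20 (-0.227). Of the bacterial-type Mrps members 12 of 18 were lower (-0.241) and of the other Mrps members 8 of 11 (-0.254).

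Cardiomyocyte markers were much lower with AdMettl5 in these libraries. The 7 markers in the table summed to 16900 to 19800 CPM with AdGFP and 8150 to 9080 CPM with AdMettl5, and all 7 were called lower. The 3 atrial markers summed to 222 to 234 CPM against 104 to 118 CPM, and 6 fibroblast markers to 8600 to 9100 against 6990 to 7720 CPM, with 5 lower. Of the endothelial markers 5 were in the table and summed to 27 to 29.3 CPM with AdGFP and 39 to 46.6 CPM with AdMettl5. Of these markers 4 were tested and 1 was higher. The 6 macrophage markers summed to 61.1 to 72 against 48.5 to 59.4 CPM, with 4 tested and 2 lower. The 4 smooth muscle and pericyte markers summed to 1070 to 1400 against 1160 to 1470 CPM, with 1 higher. Of all genes tested, 25.7% were lower and 27.1% higher. All 4 lymphocyte markers were at 0 in every library. The part of these levels in the members' result was not tested.

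Among the other genes of mitochondrial translation, read beside the 25.7% of all genes that were lower and the 27.1% that were higher, 9 of 13 translation factors were lower with AdMettl5, led by the elongation factor Gfm1 (-0.43, adjusted p = 3.26e-05) and the membrane insertase Oxa1l (-0.29, adjusted p = 0.000113). Of 17 aminoacyl-tRNA synthetases 9 were lower, led by Tars2 (-0.75, adjusted p = 1.49e-06) and Hars2 (-0.71, adjusted p = 4.14e-06), and 1 was higher. Of 22 assembly and rRNA modification genes 6 were lower (27.3%) and 3 higher (13.6%), so the lower share was near that of all genes and the higher share below it. Among them Mrm1, an rRNA methyltransferase, rose (0.6, adjusted p = 7.56e-05), and the GTPase Mtg1 fell (-0.52, adjusted p = 0.000204). Of the 5 subunits without an Mrp symbol, Dap3 (-0.35, adjusted p = 0.00113) and Ptcd3 (-0.16, adjusted p = 0.0121) were lower. Among 9 genes of mitochondrial DNA transcription, replication and mRNA stability, the elongation factor Tefm fell (-0.56, adjusted p = 0.000774) and the DNA polymerase Polg rose (0.22, adjusted p = 0.00361). None of 12 mRNAs encoded in mitochondrial DNA was called by edgeR, none had an unadjusted p under 0.05, and their median was -0.001. For comparison, 34 of 36 nuclear complex I genes were lower with a median of -0.447, and 47 of 84 cytosolic ribosomal protein genes with a median of -0.167.

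The TAC and NRVM comparisons share no library and differ in species, age, stress and the direction in which METTL5 was changed. Over the 74 members tested in both, 8 were lower in both, Mrpl1, Mrpl18, Mrpl23, Mrpl55, Mrps9, Mrps21, Mrps35 and Mrps36. They were 57.1% of the 14 lower after TAC and 17.8% of the 45 lower in NRVMs. The first share is close to the 60.8% of all tested members that were lower in NRVMs. Over 11029 genes matched by symbol, 236 were lower in both, 34.2% and 7.54% of the lists. The fold change was below 0 in both for 57 of the 74 members, beside 2742 of the 11029 matched genes. Taken singly, 72 of 78 members were below 0 after TAC and 63 of 74 in NRVMs. A high count in both follows from these 2 shifts and does not show that the comparisons are related. Across the 74 members, which are not independent replicates, the sizes of the fold changes had a correlation near 0 (Pearson's r -0.01, Spearman's rho -0.08). Mrpl28 was at -0.56 after TAC and -0.11 in NRVMs, and Mrps16 at -0.18 and -0.73, and neither was called in the comparison where its fold change was nearer 0.

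**Figure D5:**
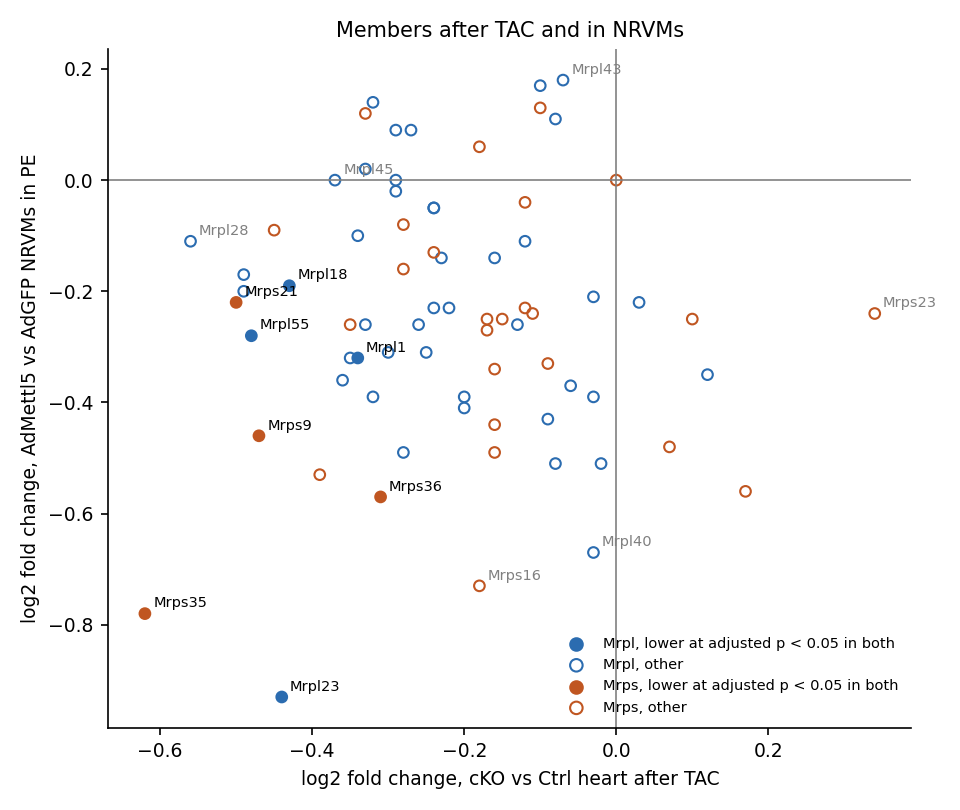
Log2 fold change of each of the 74 members tested in both, in Mettl5-cKO against Ctrl hearts after TAC (horizontal) and in AdMettl5 against AdGFP NRVMs (vertical), with filled points for the 8 members lower in both. Mrps35 and Mrpl23 are at the lower left, Mrps23 is alone at 0.34 on the horizontal axis, and 57 members are below 0 on both axes.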

How the data were processed

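RNA-seq was made from mouse hearts and rat NRVMs, as total RNA in BGIseq libraries. The authors aligned reads to GRCm38 or Rnor_6.0 with HISAT2 2.0.4 and estimated gene counts with StringTie 2.1.4 (versions from the submitters' processing notes, which also name DESeq2 1.4.5). These estimated counts were deposited as whole numbers and used unchanged, since rounding altered none, in the count test planned for raw counts. Strandedness and annotation release are not given in the sources used here.

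Each table was tested alone, except for 1 fit of TAC against 3 months, with edgeR 4.0.16 in R 4.3.3 (filterByExpr with a minimum count of 10 and total of 15, TMM scaling, quasi-likelihood test, Benjamini-Hochberg over all genes tested). A member was called at an adjusted p under 0.05. CPM values are scaled by TMM factors. Fold changes are Mettl5-KO or Mettl5-cKO over Ctrl and AdMettl5 over AdGFP, with their SE. Alternatives were DESeq2 1.42.0 (Wald test and size factors), scaling by total counts, other filters, a log2 limit of 1, leaving out each library, and a replicate block at 1 month. The pipeline was checked on simulated data. An exact two-sided permutation test over 70 labellings, whose smallest p is 0.0286, was run for single members and can reach that value wherever groups do not overlap.

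Library numbers are the labels' replicate numbers at 1 month and the order of the numbers in the column names within a group elsewhere, where columns name the group only. No 2 libraries were alike (chi-square per degree of freedom at least 2.16 in every replicate pair). Genes were named as the 6 called members per subunit and direction with the smallest adjusted p, or without calls the 3 with the largest fold change, plus fixed role members, members against the direction of 90% of their subunit, the 3 highest and 3 lowest per length, and the 2 leading genes of each pathway list. The members and lists were chosen with earlier results of these data known. Exon lengths and positions came from GENCODE M21 (GRCm38), and promoters from RefSeq (GRCm38.p6).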

Additional observations from a re-analysis of the deposited data

Results flagged for a closer look

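For the named members and the summed Mrpl and Mrps levels in each group, 152 sets of 4 libraries were examined. Of these, 10 held a library whose gap to the nearest other exceeded Dixon's 95% critical value for 4 samples, where chance gives about 1 in 20. All 10 were sets of a named member, and no summed level was among them. Of these 10, 7 were Mettl5-cKO library 4 after TAC, which was always the highest. In CPM, that library was at 35.9 for Mrpl45 (the other 3 at 29.9 to 30.6), 47.9 for Mrpl55 (32.3 to 34.8) and 41.9 for Mrps35 (30.1 to 31.4). It was at 21.1 for Mrps28 (15.1 to 16), 33.9 for Mrps36 (27.2 to 28), 53.4 for Mrps18a (46.2 to 47) and 24.8 for Mrps12 (18.9 to 19.9). Each of these values lay between the other Mettl5-cKO hearts and the highest Ctrl heart. The other 3 libraries were each apart in 1 gene. Mrpl23 was at 33.2 CPM in 1-month Ctrl library 1, below 36.9 to 37.6 in the other 3, and Mrpl45 at 36.3 CPM in 3-month Ctrl library 3, below 43.5 to 44.4. Mrpl15 was at 84.3 CPM in AdGFP library 1, above 79.6 to 80.2.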

How the results depend on the processing

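Counts of called members after TAC moved with most choices. Lower Mrpl members numbered 3 with library size alone, 2 with no filter, 18 with DESeq2 and 0 with a log2 limit of 1. Lower Mrps members numbered 2 with no filter, 8 with DESeq2 and 0 with that limit. Of all genes, 3.21% were lower with library size alone, 1.37% with no filter and 4.19% with DESeq2. The limit was passed by 2.90% in either direction. Higher Mrps members numbered 2 with library size alone and 1 with DESeq2, beside 2060 of 16340 and 1460 of 30075 genes. The medians with library size alone were -0.099 (Mrpl) and -0.025 (Mrps), while that of all genes rose to 0.143. With no filter, more genes shared the adjustment. Leaving out 1 library gave 0 to 27 lower Mrpl, 0 to 12 lower Mrps and 0 to 1 higher Mrps members, and in the fit of TAC against 3 months 0 to 5 called members with an Mrpl median of -0.222 to -0.104. Of all genes, 1.13% to 11.6% were then lower after TAC, and 0% to 3.91% were called in that fit.

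In NRVMs, lower Mrpl members numbered 14 and lower Mrps members 11 with library size alone, and 0 of each passed a log2 limit of 1. Of all genes, 15.6% were lower with library size alone, and 5.85% passed the limit in either direction. Higher Mrpl members numbered 0 with DESeq2's size factors, 8 with library size alone, 0 with no filter and 0 with the limit, and higher Mrps members 4 with library size alone. Over all genes, 4028 of 15041 were higher with DESeq2's size factors, 5872 of 15041 with library size alone and 3919 of 20787 with no filter. The medians with library size alone were -0.095 (Mrpl) and -0.115 (Mrps), with that of all genes at 0.133. With that scaling Mrpl12 (0.11) and Mrpl45 (0.13, adjusted p = 0.0338, edgeR) turned positive. Leaving out 1 library gave 0 to 2 higher Mrpl and 0 to 1 higher Mrps members, and 22 to 27 and 15 to 22 lower ones, with 22.5% to 24.7% of all genes lower. Why values moved with scaling or test was not tested.

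The other counts stayed within 1.5 times and the other medians within their spread, 142 of 164 values under the alternatives and 213 of 240 without 1 library. These totals include the counts of called members at 1 and 3 months, which were 0 in every setting. Such counts were entered as unchanged, so the totals do not measure how stable the calls were. Of single named members, 334 of 355 and 468 of 544 values kept their direction and side of the threshold, where a sign change within 1 SE of an uncalled member was not counted as reversed.

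At 1 month the replicate numbers were shared between genotypes, and same-numbered libraries correlated at 0.24, 0.12, -0.11 and 0.08. The other pairs correlated at -0.28 to 0.19. Such values cannot show whether same-numbered libraries share a litter or a batch. With the number as a block, 0 members were called and the medians were 0.073 (Mrpl) and 0.012 (Mrps). The columns of the other tables carry no label replicate numbers, so no block was fitted there. Tested members had at least 50 counts in every library, and the median SE of their log2 fold changes was 0.142 in the 1-month hearts, 0.102 in the 3-month hearts, 0.0944 in the hearts with TAC and 0.0697 in the NRVMs.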
